A study of Mus musculus with 37 samples.

Results

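Haemoglobin transcripts were followed through 37 RNA libraries of mouse cortical astrocytes with the question of how much blood RNA those libraries held. The 5 genes were the alpha globin genes Hba-a1 and Hba-a2, the beta globin genes Hbb-bs and Hbb-bt, and Alas2, the erythroid enzyme of the first step of haem synthesis. They were found by matching Ensembl identifiers to the 5 symbols, and all 5 were among the 21975 genes of both deposited tables. Haemoglobin is the oxygen carrier of red blood cells, a tetramer built from alpha and beta globin chains that each hold a haem group. Mature mouse red blood cells have no nucleus, yet the youngest of them in the circulation, the reticulocytes, still carry large amounts of globin RNA. In brain tissue most haemoglobin RNA lies within vessels unless blood has been flushed out or has leaked from them, although low globin expression in neurons and glia has been described.

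The study asked how astrocytes differ between mice that do and do not develop post-traumatic epilepsy (PTE) after controlled cortical impact (CCI), a blow to the exposed cortex through a craniectomy. Injured mice with epilepsy (PTE+) gave 4 ipsilateral and 4 contralateral libraries, injured mice without it (PTE−) gave 10 and 9, and sham mice gave 5 and 5. Sham mice also had the craniectomy, and mice carried electrodes for recording, so every group had been operated on. Cortex was taken 4 months after surgery and dissociated with papain, astrocytes were captured with ACSA-2 MicroBeads, and RNA was amplified with SMART-Seq v4. Mice were CD1 males according to the methods, whereas the sample labels write the genotype as WT CD31, and the age is not in the labels. Flushing of the vessels before dissociation is not stated for the astrocyte preparation. The 37 libraries came from 20 mice, of which 15 were injured, and 17 mice had both hemispheres (5 sham, 9 PTE− and 3 PTE+).

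The deposited values are TPM, the transcript abundance that RSEM estimates per length of transcript and scales to a common total, here 999999 to 1000001 in each library. The depth of each single library cannot be read from them, so no counting interval is given. Genes above 0 TPM numbered 16383 to 17125 (median 16697) in ipsilateral PTE+ libraries, 10727 to 18319 (16342) in PTE− and 15622 to 16876 (16413) in sham. Contralateral libraries had 16188 to 17096 (median 16669) in PTE+, 15815 to 18534 (16518) in PTE− and 15929 to 17523 (17027) in sham. The ipsilateral library of PTE− mouse 9_14 stood apart with the 10727, and results that include it are given with and without it where it matters. The label of the libraries was checked on 12 astrocyte markers, which were all above 5 TPM on average and summed to 15391 to 21952 TPM (median 18234). Aldoc, a glycolytic enzyme of astrocytes, was the most abundant of them with a mean of 10126 TPM in ipsilateral libraries. Markers of endothelium (442 to 3295 TPM, median 1160.2, most abundant Ly6c1), mural cells (732 to 4756, median 1391, Vtn) and oligodendrocytes (519 to 4451, median 1757, Mbp) were also present, as sums over 12, 8 and 8 genes. The mural 4756 TPM came from mouse 9_14, and the highest mural sum without it was 2612 TPM. Microglia markers summed to 120.3 to 787 TPM (median 256) over 12 genes and neuron markers to 37.1 to 624 TPM (median 236, Snap25) over 8.

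The alpha globin genes lie close together on chromosome 11 of GRCm38 (GENCODE vM21), Hba-a1 (ENSMUSG00000069919) from 32283511 to 32284465 and Hba-a2 (ENSMUSG00000069917) from 32296489 to 32297298, both on the plus strand. The beta globin genes lie on the minus strand of chromosome 7, Hbb-bs (ENSMUSG00000052305) from 103826534 to 103828096 and Hbb-bt (ENSMUSG00000073940) from 103812524 to 103813996. Alas2 (ENSMUSG00000025270) lies on the plus strand of chromosome X from 150547375 to 150570638. All 5 are annotated as protein coding. Promoters are shown as a description of genes on separate chromosomes whose levels moved together from library to library. Alas2 was less tightly tied to the globin genes, with r of 0.546 to 0.602 ipsilaterally and 0.827 to 0.884 contralaterally. The ipsilateral r include the library of PTE− mouse 9_14, with Alas2 at 0 and summed haemoglobin at 7336 TPM. They are not given without it, so the hemispheres cannot be compared by these r. The part of promoters in the shared movement of levels was not tested. RefSeq (GRCm38.p6) held a promoter for 5 of 5 genes, and the 130 bases before the RefSeq start of 4 of them are printed in the direction of transcription. They are chr11:32296362-32296491 (plus strand) for Hba-a2, chr7:103827929-103828058 and chr7:103813924-103814053 (minus strand) for Hbb-bs and Hbb-bt, and chrX:150547287-150547416 (plus strand) for Alas2. Hba-a1 is left out since it shares an unbroken run of 247 of 250 bases with Hba-a2, against a longest run of 14 bases between Hbb-bs and Hbb-bt.
Hba-a2: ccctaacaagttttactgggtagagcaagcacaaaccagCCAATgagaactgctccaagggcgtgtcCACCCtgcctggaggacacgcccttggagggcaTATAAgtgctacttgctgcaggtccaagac
Hbb-bs: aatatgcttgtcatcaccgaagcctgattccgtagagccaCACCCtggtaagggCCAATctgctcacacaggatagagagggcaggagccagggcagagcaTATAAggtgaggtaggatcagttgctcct
Hbb-bt: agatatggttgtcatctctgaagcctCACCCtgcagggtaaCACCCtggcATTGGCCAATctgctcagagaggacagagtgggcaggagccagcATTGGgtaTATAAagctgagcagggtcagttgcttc
Alas2: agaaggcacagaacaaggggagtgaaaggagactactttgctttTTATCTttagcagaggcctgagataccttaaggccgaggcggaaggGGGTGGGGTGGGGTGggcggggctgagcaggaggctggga
Capitals mark matches, on either strand, to the motif CACCC (read as GGGTG when on the minus strand), the CCAAT box (read as ATTGG when on the minus strand), the GATA-type motif AGATAA (read as TTATCT when on the minus strand) and the TATA-type motif TATAA of core promoters. The motif CATAAA was searched as well and was in none of the 5 promoters. Over all 32851 promoters of 250 bases, 52% held CACCC, 33.8% CCAAT, 9.99% AGATAA, 22.8% TATAA and 10.8% CATAAA, so single matches are common. In the 250 bases before their starts the globin promoters each held the motif CACCC, the CCAAT box and the TATA-type motif. TATAA began 27 bases before the start in Hba-a1, 30 in Hba-a2, 29 in Hbb-bs and 28 in Hbb-bt. The Alas2 promoter held 3 copies of CACCC, 1 of AGATAA and 2 of TATAA, the last outside the printed bases, and no CCAAT. The GATA-type motif was also found once in the Hbb-bs promoter, 210 to 205 bases before the start and outside the printed bases. A match describes these letters and is not evidence of a bound site. GENCODE places the starts 161, 3, 168, 73 and 42 bases farther upstream for Hba-a1, Hba-a2, Hbb-bs, Hbb-bt and Alas2, so part of a printed window, and for Hbb-bs the whole of it, is transcribed in those models.

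Copies of each chain are hard to tell apart by reads. The coding sequences of Hba-a1 and Hba-a2 (429 bases) are identical at 428 bases, and 56.5% of the 600 windows of 100 bases in the Hba-a1 transcript also occur in Hba-a2. Hbb-bs and Hbb-bt (444 bases) are identical at 443 bases and share 62.6% of 529 windows. Alpha and beta transcripts share 0 windows. The split of reads within a pair is therefore uncertain, sums of a pair are firmer than single copies, and the haplotype of the beta cluster in these mice is not given in the sources used here.

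Alpha globin was the most abundant of the transcripts followed here. Hba-a1 ranged from 176 to 5105 TPM over the 37 libraries (median 825, 29-fold) and ranked 80 among all genes by mean TPM ipsilaterally and 68 contralaterally. Hba-a2 ranged from 121 to 3573 TPM (median 545). Hbb-bs, the more abundant beta copy, ranged from 127 to 3406 TPM (median 563) and Hbb-bt from 17.3 to 512 TPM (median 74.5, 29.6-fold). Alas2 stood far lower, from 0 to 27.6 TPM (median 2.23), above 5 TPM in 7 libraries and at 0 in the library of mouse 9_14. The extremes were not set by group: both the highest and the lowest value of Hba-a1 came from ipsilateral sham libraries, of mice 9_10 and 8_16.

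**Figure D1:**
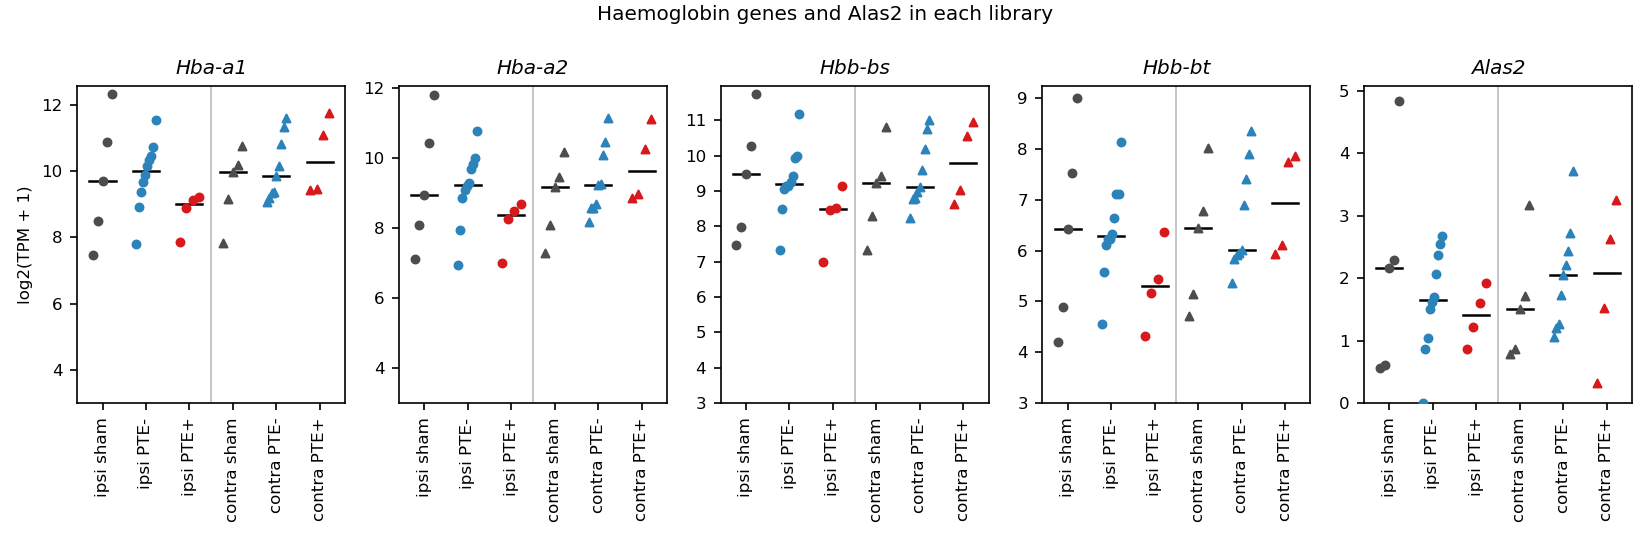
Level of each gene in each library, as log2(TPM + 1), by hemisphere (circles ipsilateral, triangles contralateral) and group (grey sham, blue PTE−, red PTE+), with a black line at the group median and the axis of the globin genes starting above 0. Ipsilateral sham libraries span Hba-a1 from 176 to 5105 TPM, while ipsilateral PTE+ libraries lie between 229 and 598 TPM.

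The 4 globin genes summed to 500.2 TPM in the ipsilateral PTE+ library of mouse 9_19 and to 12597 TPM in the ipsilateral sham library of mouse 9_10. As a share of all TPM, haemoglobin made up 0.05% to 1.26% of ipsilateral libraries (median 0.2%, 25.2-fold) and 0.0569% to 0.781% of contralateral libraries (median 0.219%, 13.7-fold). These folds rest on single libraries. After ipsilateral sham mouse 9_10 the next highest share was 0.734% (PTE− mouse 9_14). After contralateral sham mouse 9_9 the next lowest was 0.116% (PTE− mouse 9_16). Set against the astrocyte transcript Aldoc, which stayed between 7676 and 13204 TPM, summed haemoglobin equalled 4.6% of Aldoc in ipsilateral sham mouse 8_16 and 106% in ipsilateral sham mouse 9_10. In the library of mouse 9_14 it equalled 85.5%. A share of this size moves other genes little, since leaving the globin genes out of the total would raise every other gene by at most 0.0183 on the log2 scale ipsilaterally and 0.0113 contralaterally.

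Spread between libraries of the same group was far larger for the globin genes than for most genes. The within-group SD of Hba-a1 was 1.26 on the log2 scale in ipsilateral libraries and 1.05 in contralateral libraries, against medians of 0.44 and 0.32 over the 10204 and 10263 genes with a mean above 5 TPM. That of Hbb-bs was 1.21 and 1.09. Of these genes, 96.9% ipsilaterally and 98.1% contralaterally varied less than Hba-a1, and 92.7% and 97.6% varied less than Alas2.

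The globin genes kept near fixed proportions while their levels ranged widely. The ratio of summed alpha to summed beta TPM lay between 1.41 (contralateral sham mouse 9_11) and 2.66 (contralateral PTE+ mouse 8_10), with a median of 2.13 and a coefficient of variation of 14.6%. Hba-a1 made up 56.4% to 67.6% of alpha TPM (median 61.1%), and Hbb-bs made up 86.2% to 91.1% of beta TPM (median 87.8%). Alas2 was less tightly tied to them, with 0 to 41 TPM per 10000 TPM of haemoglobin (median 10.8, coefficient of variation 59.9%). The highest of these came from the library with the least haemoglobin, ipsilateral PTE+ mouse 9_19, and the 0 from mouse 9_14, which had the second most of the ipsilateral libraries.

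**Figure D2:**
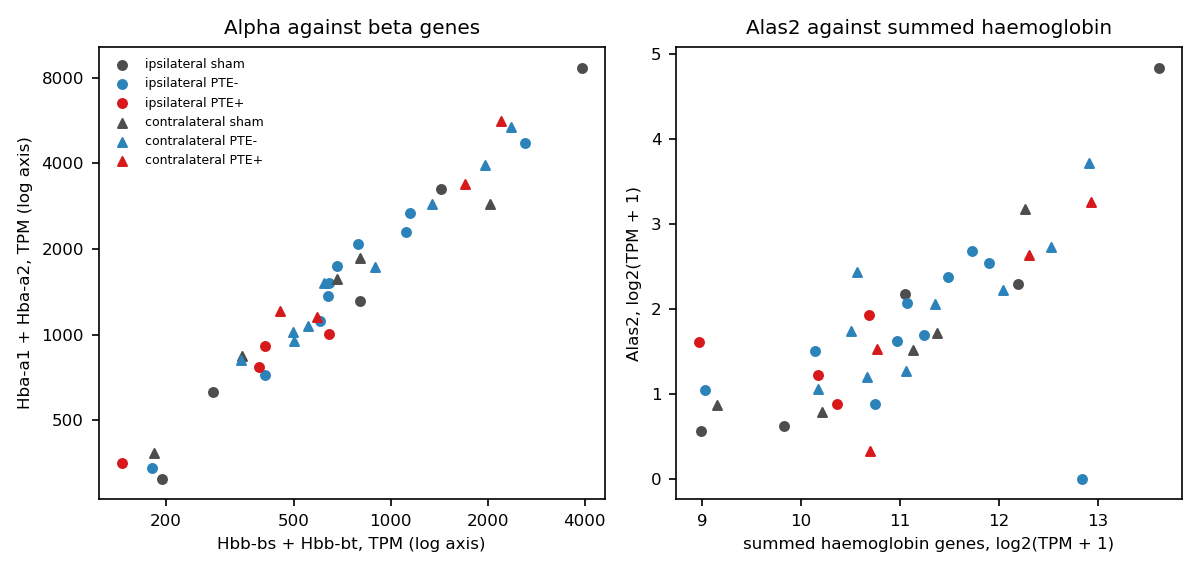
Summed alpha against summed beta globin TPM on log axes (left) and Alas2 against summed haemoglobin as log2(TPM + 1) (right), each point being a library, with group by colour and hemisphere by shape. Alpha follows beta at a ratio between 1.41 and 2.66 in all 37 libraries, while Alas2 is at 0 TPM in the library of mouse 9_14.

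Levels of other erythroid genes ranged widely, and many were at or near 0. Of 31 besides the 5, 18 had a median below 1 TPM, among them 10 with a median of 0, and 11 never reached 1 TPM. The anion exchanger band 3 (Slc4a1) reached at most 0.16 TPM with 0 in 34 libraries, the erythroid transcription factor Gata1 0.1 TPM, and Kel was at 0 in all 37. Ahsp, the chaperone of alpha globin, is in neither table. The 31 genes summed to 460.2 to 707 TPM (median 626), but 10 of them with a mean above 5 TPM are genes that other cells express too, led by the mitophagy receptor Bnip3l (228 to 326 TPM, median 270.3) and including Bpgm (median 93.9), which makes the allosteric effector 2,3-bisphosphoglycerate, and Fech (median 69.5), which puts iron into haem. Embryonic and minor globin genes summed to 0 to 1.51 TPM (median 0.4), with Hba-x, Hbb-bh1 and Hbb-bh2 at 0 in all libraries and Hbq1b the most abundant of 6.

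Transcripts of other blood cells were low. The 13 markers of neutrophils and blood monocytes summed to 3.98 to 38.4 TPM (median 10.9, most abundant Ly6c2), and Ly6g, Camp, Ngp, Ltf and Mmp8 had medians of 0. The 12 platelet markers summed to 7.13 to 25.8 TPM (median 12.4), led by Pf4, which macrophages express as well, with Gp6 and Tubb1 at a median of 0. The 8 lymphocyte markers found summed to 0.03 to 15.3 TPM (median 4.67, most abundant Nkg7). Among the platelet genes Pf4 alone was tested, and it rose in contralateral PTE+ libraries (10.9 ± 4.62 against 5.86 ± 2.54 TPM, log2 difference 0.80, SE 0.32), where 2.79% of all tested genes were called. Of 2 tested neutrophil and monocyte genes S100a9 fell in contralateral injured libraries (1.25 ± 1.32 against 5.44 ± 6.77 TPM, log2 difference −1.15, SE 0.46), where 4.05% of all tested genes were called, and the other gene was higher without a call (list median −0.51). Calls of these blood genes were 0 elsewhere, and adjusted p-values for both were at least 0.978 (limma). Pf4 lost its call without PTE+ mouse 8_10 (0.59) or 9_17 (0.71) and with quantile normalization (0.71). S100a9 lost it without sham mouse 9_10 (−1.04) and no longer passed the filter on TPM without sham mouse 8_16. With all mice, S100a9 passed that filter through its sham mean alone.

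Ordered by their medians, the 6 groups ran for Hba-a1 from contralateral PTE+ (1429.6 TPM) through ipsilateral PTE− (1031), contralateral sham (993), contralateral PTE− (917) and ipsilateral sham (825) to ipsilateral PTE+ (510.1). Means were 1737 ± 1303, 1156 ± 778, 935 ± 573, 1321 ± 945, 1671 ± 2032 and 462 ± 165 TPM (SD) in the same order. Contralateral PTE+ libraries had the highest and ipsilateral PTE+ libraries the lowest median of each of the 5 genes. Every pair of neighbours in these orders overlapped, and no neighbours differed beyond their spread. The ends of the order did separate for the alpha genes: Hba-a1 was 690.3 to 3399 TPM in contralateral and 229 to 598 TPM in ipsilateral PTE+ libraries, and Hba-a2 was 465 to 2218 and 126 to 405 TPM. Such a separation, with the ipsilateral libraries lower, held for 2 of the 5 genes and for 0.305% of 10485 genes above 5 TPM on average in either group. It is given as a description, noticed in the data, and 3 of the mice are in both groups.

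In the ipsilateral cortex, haemoglobin did not separate injured from sham mice. Hba-a1 in sham libraries measured 1889.6 TPM in mouse 8_15, 176 in 8_16, 358 in 9_9, 5105 in 9_10 and 825 in 9_11. In the 14 injured libraries it ranged from 219 to 2988 TPM with a median of 736. The sham libraries held both the highest and the lowest value and enclosed all injured libraries. Hbb-bs measured 1243, 177, 251, 3406 and 718 TPM in the same order of sham mice, and 127 to 2333 TPM (median 561) after injury. Alas2 measured 3.89, 0.47, 0.53, 27.6 and 3.49 TPM in sham mice and 0 to 5.4 TPM (median 2.06) after injury. Its sham mean of 7.19 ± 11.5 TPM rests on mouse 9_10. Values were compared as log2(TPM + 1) with limma, a linear model fitted to all genes whose mean exceeded 5 TPM in some group compared, and this scale understates changes of genes with low TPM. A gene was called at an unadjusted p under 0.05 with a fold of at least 1.2.

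The log2 difference of Hba-a1 between 14 injured and 5 sham libraries was −0.21 (SE 0.62, two-sided exact permutation p = 0.758). Differences were −0.42 for Hba-a2 (exact permutation p = 0.547), −0.39 for Hbb-bs (0.561), −0.31 for Hbb-bt (0.651) and −0.52 for Alas2 (0.365), over 11628 regroupings with a smallest possible p of 8.60e-05. In limma 0 of 5 were called (0 also at an unadjusted p under 0.05), against 1.62% of 10434 tested genes (169 genes, 195 at an unadjusted p under 0.05 and 0 at an adjusted p). In bulk RNA, fewer blood cells and less RNA per cell cannot be told apart. Without sham mouse 9_10 all 5 differences turned positive, to 0.42, 0.21, 0.20, 0.33 and 0.17, and Alas2 no longer passed the filter on TPM, so that 4 genes were tested. Without sham mouse 8_15 Hba-a1 turned to 0.07, and without sham mouse 8_16 or 9_9 it was −0.79 or −0.53. Mouse names begin with 8 or 9, a prefix whose meaning is not stated, and within prefix 8 (5 and 2 libraries) Hba-a1 differed by 0.68, within prefix 9 (9 and 3) by −0.78. The count of 169 called genes became 399 without mouse 9_14 and 415 without sham mouse 9_11, with 0 of the 5 genes called in both.

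In the contralateral cortex, median haemoglobin was close in injured and sham mice, and the highest library of each of the 5 genes was from an injured mouse. Hba-a1 in sham libraries measured 569 TPM in mouse 8_15, 993 in 8_16, 228 in 9_9, 1156 in 9_10 and 1728 in 9_11, and in 13 injured libraries 531 to 3399 TPM with a median of 917. The groups overlapped, with 5 of 13 injured libraries above every sham library and sham mouse 9_9 below every injured library. For Hba-a2, Hbb-bs and Hbb-bt, 4, 2 and 1 of 13 injured libraries lay above every sham library. Hbb-bs measured 309.7, 595, 159, 692 and 1781 TPM in sham mice, and 302 to 2042 TPM (median 556) after injury. The log2 difference of Hba-a1 was 0.60 (SE 0.48, two-sided exact permutation p = 0.279). It was 0.65 for Hba-a2 (exact permutation p = 0.255), 0.57 for Hbb-bs (0.321) and 0.49 for Hbb-bt (0.401), over 8568 regroupings with a smallest possible p of 0.000117. Alas2, at 0.25 to 12.1 TPM after injury and 0.72 to 8.03 TPM in sham mice, did not pass the filter and differed by 0.40 (exact permutation p = 0.432). Without sham mouse 9_9 the differences shrank to 0.17 for Hba-a1, 0.26 for Hba-a2, 0.15 for Hbb-bs, 0.12 for Hbb-bt and 0.22 for Alas2, and without sham mouse 9_11 they were 0.90, 0.98, 1.02, 0.95 and 0.79. Without sham mouse 8_15 Hbb-bt was 0.23 and Alas2 0.20. In limma 0 of the 4 tested genes were called (0 also at an unadjusted p under 0.05), against 4.05% of 10556 genes (428 genes, 472 at an unadjusted p under 0.05 and 0 at an adjusted p). Within prefix 8 Hba-a1 differed by 1.16 (6 and 2 libraries) and within prefix 9 by 0.13 (7 and 3). The 428 called genes became 883 without sham mouse 9_9, 728 without sham mouse 8_16, 231 without sham mouse 9_11 and 667 without PTE+ mouse 9_17, with 0 globin genes among them.

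Ipsilateral libraries of epileptic mice held less haemoglobin than most of those from injured mice without epilepsy. Hba-a1 measured 553 TPM in PTE+ mouse 8_10, 598 in 9_17, 467 in 9_18 and 229 in 9_19, and 219 to 2988 TPM (median 1031) in 10 PTE− libraries. All 4 PTE+ libraries lay below the PTE− median, though within the PTE− range. Hba-a2 measured 359, 405, 301 and 126 TPM in the same mice against 121 to 1734 TPM (median 598). Hbb-bs measured 365, 563, 354 and 127 TPM against 159 to 2333 TPM (median 587). Hbb-bt measured 42.7, 81.3, 34.8 and 18.9 TPM against 22.5 to 281 TPM (median 77.2). For Hbb-bt, 3 of 4 PTE+ libraries lay below the PTE− median, and mouse 9_19 was the lowest PTE+ library for each of the 4 globin genes. Alas2 measured 0.83, 2.8, 1.33 and 2.05 TPM against 0 to 5.4 TPM (median 2.16), with 3 of 4 PTE+ libraries below the PTE− median. The highest PTE− value of the 4 globin genes came from the library of mouse 9_14.

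Hba-a1 was lower in PTE+ than in PTE− libraries by −1.11 on the log2 scale (SE 0.50, limma adjusted p = 0.977, two-sided exact permutation p = 0.0739). Hbb-bt was lower by −1.09 (SE 0.50, limma adjusted p = 0.977, exact permutation p = 0.0729). Their unadjusted limma p-values were 0.0434 and 0.0451, so 2 of the 4 tested genes were called, against 0.573% of 10473 genes (60 genes, 34 higher and 26 lower). In limma 63 of all tested genes reached an unadjusted p under 0.05 and 0 did so after adjustment, and the median log2 difference over all 10473 was 0.12. Hba-a2 (−1.05, SE 0.53, exact permutation p = 0.104) and Hbb-bs (−1.01, SE 0.52, exact permutation p = 0.102) were not called, and Alas2 (−0.23, exact permutation p = 0.616) did not pass the filter. The 1001 regroupings allow a smallest p of 0.000999. The 4 globin genes share libraries, and the copies of a chain share reads, so they are not separate measurements. Summed haemoglobin was −1.07 lower in PTE+ libraries.

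Without mouse 9_14 both calls held at smaller differences, −0.93 for Hba-a1 (exact permutation p = 0.0937) and −0.89 for Hbb-bt (0.0881), with 197 genes called in all. Both calls ended without PTE+ mouse 8_10 (−1.23 for Hba-a1 and −1.13 for Hbb-bt), 9_18 (−1.15 and −1.03) or 9_19 (−0.80 and −0.75), and with the prefix as a covariate (−1.06 and −1.03). They also ended with no filter on TPM, and a pseudocount of 0.1 kept Hba-a1 alone. Without PTE+ mouse 9_17, Hba-a1 (−1.27), Hbb-bs (−1.30) and Hbb-bt (−1.43) were called among 23 genes in all, and without 8_10 the count was 121. Without 9_19 Hba-a2 was −0.68 and Hbb-bs −0.59, and with single PTE+ mice left out Alas2 lay between −0.41 (without 9_17) and −0.05 (without 8_10). Within prefix 9 the difference of Hba-a1 was −1.11 (3 and 6 libraries), and prefix 8 has a single PTE+ library, with 553 TPM against 655 to 1676 TPM in 4 PTE− libraries. Endothelial markers lay on the other side in these libraries, with 11 of 11 tested genes higher in PTE+ (median log2 difference 0.22 against 0.12 over all tested genes, 0 called in limma), at sums of 1935, 1221, 1077 and 449.9 TPM in mice 8_10, 9_17, 9_18 and 9_19 and 442 to 1400.4 TPM in PTE− mice. Neuron markers were higher in 7 of 7 (median 0.59) and oligodendrocyte markers in 5 of 6 tested genes (0.65), while microglia markers were lower in 10 of 11 (−0.20), the side of haemoglobin. Sums overlapped, at 232 to 363 TPM in PTE+ against 76.6 to 624 TPM in PTE− libraries for neuron markers. For oligodendrocyte markers they were 1179.9 to 2308 against 774 to 2257 TPM. Mouse 9_14 had the lowest PTE− sum of all 3 lists (120.3 TPM for microglia markers), and these medians are not given without it. Astrocyte markers were higher in 10 of 12 (0.15), mural markers in 5 of 7 (0.22) and erythroid genes in 9 of 10 (0.24). The tested platelet gene (0.48) and the tested neutrophil and monocyte gene (0.72) were higher too, the side opposite to haemoglobin. With a median of 0.12 over all tested genes, most genes lay on that higher side, and the astrocyte median was close to it. Mouse 9_14 also had the lowest PTE− sum of astrocyte markers (15391 TPM) and of erythroid genes (460.2 TPM) and the highest of mural markers (4756 TPM). The differences of these lists, and of the tested platelet and neutrophil and monocyte genes, are not given without it either. Calls in limma were 0 in each of these lists. The part of these cells in the result was not tested.

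In the contralateral cortex of injured mice, haemoglobin did not separate the outcomes. Hba-a1 measured 706 TPM in PTE+ mouse 8_10, 3399 in 8_17, 2154 in 9_17 and 690.3 in 9_18, and 531 to 3102 TPM (median 917) in 9 PTE− libraries. PTE+ mice 8_17 and 9_17 were high, the other PTE+ libraries were below the PTE− median, and the groups overlapped. Hbb-bs measured 393, 1965, 1489.7 and 520.4 TPM in the same mice against 302 to 2042 TPM (median 556). Alas2 measured 0.25, 8.56, 5.21 and 1.88 TPM against 1.08 to 12.1 TPM (median 3.14), again high in mice 8_17 and 9_17. The log2 difference of Hba-a1 was 0.36 (SE 0.52, two-sided exact permutation p = 0.576), that of Hba-a2 0.46 (0.453), of Hbb-bs 0.29 (0.645), of Hbb-bt 0.29 (0.652) and of Alas2, which did not pass the filter, −0.11 (0.86). In limma 0 of the 4 tested genes were called (0 also at an unadjusted p under 0.05), against 2.79% of 10423 genes (291 genes, 303 at an unadjusted p under 0.05 and 0 at an adjusted p). The 715 regroupings allow a smallest p of 0.0014. Without PTE+ mouse 8_17 the difference was −0.08 for Hba-a1, 0.03 for Hba-a2, −0.10 for Hbb-bs and −0.03 for Hbb-bt, and without PTE+ mouse 9_17 it was 0.14, 0.31, 0.04 and 0.01. Array weights, which lower the influence of outlying libraries, also turned Hba-a1 (−0.18), Hbb-bs (−0.35) and Hbb-bt (−0.29), brought Hba-a2 to 0.00 and moved Alas2 to −1.02. Without 8_10 or 9_18 the globin differences were larger, 0.68 and 0.69 for Hba-a1. Alas2 turned to 0.43 without PTE+ mouse 8_10 and to 0.03 without 9_18, and Hba-a1 differed by −0.17 within prefix 8 (2 and 4 libraries) and by 0.74 within prefix 9 (2 and 5). The count of 291 called genes became 489 without PTE+ mouse 9_18. Endothelial markers rose in 3 of 11 tested genes (Pecam1, Tek and Tie1, median log2 difference of the list 0.72), with sums of 2309, 1661, 3295 and 1000.4 TPM in mice 8_10, 8_17, 9_17 and 9_18 against 681 to 1781 TPM in PTE− mice. Without PTE+ mouse 9_17 the 3 calls ended (0.37, 0.36 and 0.55), and Tek also lost its call without 8_10 (0.78). Neuron markers were higher in 7 of 7 tested genes (median 0.64), with Stmn2 called at 0.64, a call that held in 2 of 11 alternatives and was lost without PTE+ mouse 8_10 (0.58), 9_17 or 9_18 (0.56 in both). The part of endothelial or neuronal RNA in the result was not tested.

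Within a mouse, the hemispheres differed in summed haemoglobin by 1.01-fold to 4.73-fold (median 2.01-fold over 17 mice), and by more than 3-fold in 4 of them. Summed haemoglobin was 12597 TPM ipsilaterally and 2662 TPM contralaterally in sham mouse 9_10 (4.73-fold), 4684 and 1186 TPM in 8_15, and 906 and 569 TPM in 9_9. In sham mice 8_16 (507 and 2245 TPM, 4.43-fold) and 9_11 (2119 and 4917 TPM) the contralateral side was higher. PTE+ mice 8_10 (1319.5 and 1661 TPM), 9_17 (1647 and 5081 TPM) and 9_18 (1157 and 1744 TPM) all had less on the injured side. Among 9 PTE− mice the sum was higher ipsilaterally in 4, with Hba-a1 differences between −1.64 in mouse 8_11 and 1.09 in mouse 9_16 on the log2 scale. Within-mouse log2 differences of Hba-a1 had an SD of 1.95 in sham, 0.87 in PTE− and 0.81 in PTE+ mice, so the hemispheres differed most in sham mice. Hba-a1 of the hemispheres of a mouse was weakly related over 17 mice (r = 0.341, permutation p = 0.18; rho = 0.338, permutation p = 0.184; r = 0.45 without the 2 mice farthest from the median).

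**Figure D3:**
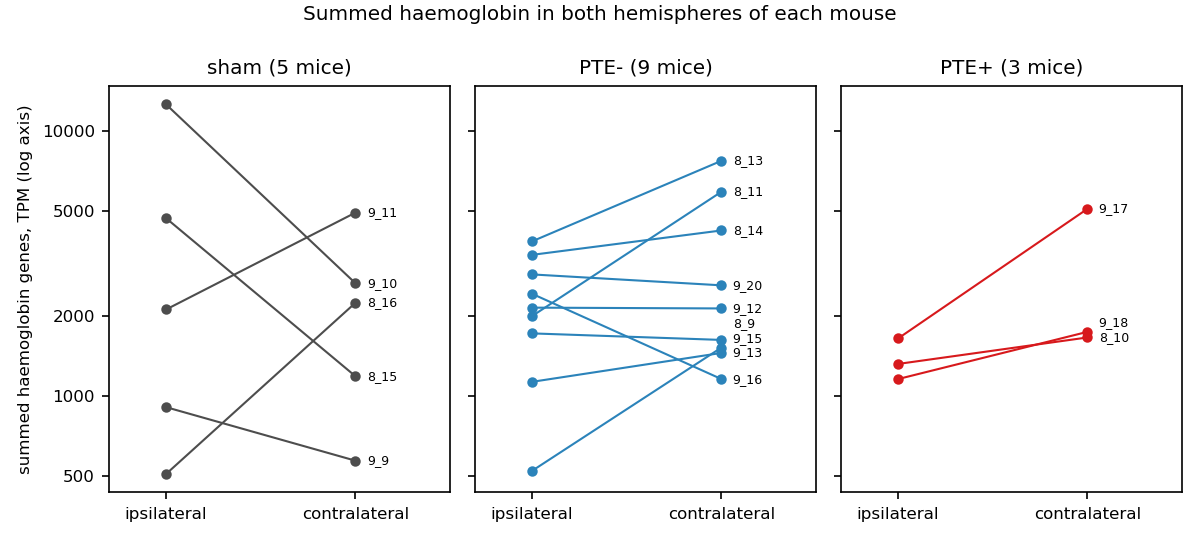
Summed TPM of the 4 globin genes in the ipsilateral and contralateral library of each of 17 mice on a log axis, in panels for 5 sham, 9 PTE− and 3 PTE+ mice, with a line joining the libraries of a mouse. Sham mice 9_10 and 8_16 lie at opposite extremes (12597 against 2662 TPM and 507 against 2245 TPM), and the lines of the 3 PTE+ mice all run higher on the contralateral side.

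Over the 17 mice with both libraries, 176 to 5105 TPM of Hba-a1 (median 816) ipsilaterally stood against 228 to 3102 TPM (median 917) contralaterally. The globin genes were each higher ipsilaterally in 6 of 17 mice, and Alas2 in 7. The log2 difference of Hba-a1 was −0.31 (SE 0.35, two-sided permutation p = 0.412 from 100000 draws with a smallest possible p of 1.00e-05), and with the mouse as a block the exact p over 131072 sign changes was 0.321. Differences were −0.23 for Hba-a2 (permutation p = 0.548, paired 0.477), −0.23 for Hbb-bs (0.533, paired 0.443), −0.33 for Hbb-bt (0.4, paired 0.306) and 0.00 for Alas2 (0.994, paired 0.994), whose direction is undefined at this size. Single mice left out gave −0.46 (without sham mouse 9_10) to −0.17 (without sham mouse 8_16) for Hba-a1. In limma 0 of the 4 tested genes were called (0 also at an unadjusted p under 0.05), against 2.24% of 10395 genes (233 genes, 510 at an unadjusted p under 0.05 and 0 at an adjusted p), and with the mouse as a block 405 genes (3.9%) were called, 0 of them globin genes. Endothelial markers fell in 4 of 11 tested genes on the ipsilateral side (Pecam1, Flt1, Kdr and Itm2a, median log2 difference of the list −0.41 against −0.03 over all tested genes). Kdr passed the filter on TPM through its contralateral mean alone (7.48 ± 6.68 TPM, against 4.74 ± 1.91 TPM ipsilaterally). The main fit had no block for the mouse, and the 4 calls held with it. Itm2a held its call without any single sham or PTE+ mouse. Flt1 lost it without sham mouse 8_16 or 9_11 (−0.48), Pecam1 without either of these (−0.38 and −0.36) or PTE+ mouse 9_17 (−0.31), and Kdr without sham mouse 8_15, 9_9, 9_10 or 9_11 or PTE+ mouse 8_10 (−0.42 to −0.38). With summed haemoglobin as a covariate Pecam1 (−0.33) and Kdr (−0.37) were not called, nor was Pecam1 with quantile normalization (−0.39). Of 7 tested mural markers (median 0.04), Rgs5 (−0.43, called in 16 of 16 alternatives) and Acta2 (−0.61, −0.53 with no call without PTE+ mouse 9_17) were lower ipsilaterally as well, and the astrocyte marker Gfap was higher (0.80). The part of vascular RNA was not tested here either.

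Whether the injury difference was unlike in the hemispheres was tested on within-mouse differences. In 12 injured mice the ipsilateral minus contralateral log2 value of Hba-a1 ranged from −1.85 to 1.09 (median −0.357), and in 5 sham mice it was 1.73 in 8_15, −2.49 in 8_16, 0.65 in 9_9, 2.14 in 9_10 and −1.06 in 9_11. Injured mice lay within the sham range, and 11 of 12 were below the sham median. Injured minus sham was −0.71 for Hba-a1 (SE 0.59, two-sided exact permutation p = 0.301), −0.93 for Hba-a2 (exact permutation p = 0.186), −0.86 for Hbb-bs (0.185), −0.73 for Hbb-bt (0.3) and −0.69 for Alas2 (0.275), over 6188 regroupings with a smallest possible p of 0.000162. In limma 0 of 5 were called (0 also at an unadjusted p under 0.05), against 6.76% of 10695 genes (723 genes, 757 at an unadjusted p under 0.05 and 0 at an adjusted p). Without sham mouse 8_16, in which the contralateral side was far higher, all 4 globin genes were called in limma, at −1.38 for Hba-a1 (exact permutation p = 0.033), −1.56 for Hba-a2 (0.0231), −1.39 for Hbb-bs (0.0319) and −1.34 for Hbb-bt (0.0473), against 8.13% of all genes. Without sham mouse 9_11, Hba-a2 (−1.35) and Hbb-bs (−1.28) were called among 1134 genes, with array weights Hba-a2 alone was called (−1.19), and without sham mouse 9_10 the count of called genes was 440. Without 9_10 the differences shrank to −0.22 for Hba-a1 (exact permutation p = 0.745), −0.46 for Hba-a2, −0.38 for Hbb-bs, −0.23 for Hbb-bt and −0.03 for Alas2, which then did not pass the filter, and without 8_15 to −0.33 (exact permutation p = 0.649), −0.46, −0.45, −0.18 and −0.43.

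For the outcomes, within-mouse log2 differences of Hba-a1 were −0.35 in PTE+ mouse 8_10, −1.85 in 9_17 and −0.56 in 9_18, against −1.64 to 1.09 (median −0.269) in 9 PTE− mice. All 3 PTE+ mice were below the PTE− median and the groups overlapped. PTE+ minus PTE− was −0.54 for Hba-a1 (two-sided exact permutation p = 0.336), −0.53 for Hba-a2 (0.382), −0.28 for Hbb-bs (0.614), −0.53 for Hbb-bt (0.35) and 0.07 for Alas2 (0.923), over 220 regroupings with a smallest possible p of 0.00455. In limma 0 of the 4 tested genes were called (0 also at an unadjusted p under 0.05), against 3.11% of 10683 genes (332 genes, 332 at an unadjusted p under 0.05 and 0 at an adjusted p). The outcome difference was thus not shown to be unlike in the hemispheres. Without PTE+ mouse 9_17 Hba-a1 was −0.07 (exact permutation p = 0.909), Hba-a2 −0.18 and Hbb-bt −0.31, Hbb-bs turned to 0.08, and the count of called genes was 156. Without PTE+ mouse 8_10 Hba-a1 was −0.82 and Hbb-bs −0.57, Alas2 turned to −0.28, and the count was 829. The 7 comparisons share libraries. Contralateral PTE+ mouse 8_17, ipsilateral PTE− mouse 9_14 and ipsilateral PTE+ mouse 9_19 have no library of the other side and entered only the injury and outcome comparisons of their own hemisphere.

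**Figure D4:**
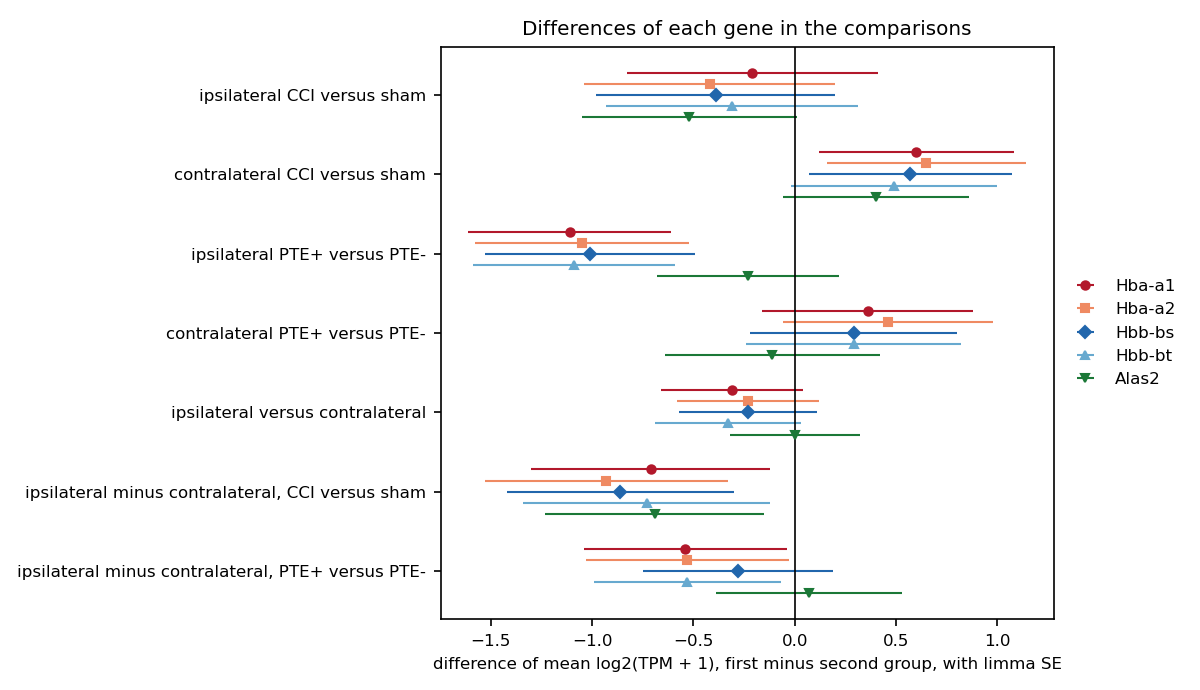
Log2 difference of each of the 5 genes in the 7 comparisons, with bars of 1 standard error from limma on log2(TPM + 1). The globin genes lie near −1 in ipsilateral PTE+ against PTE− libraries (Hba-a1 −1.11), and between −0.93 and 0.65 in the other comparisons.

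Of the astrocyte, endothelial and microglia markers, those of endothelium had the highest r with Hba-a1 in both hemispheres when all libraries were used. Without the 2 farthest libraries of each relation, ipsilateral microglia markers had a higher r (0.591) than endothelial markers (0.3). Within prefix 8 the endothelial r was the lowest of these lists in both hemispheres. Hba-a1 and the mean log2 level of 12 endothelial markers had r = 0.566 (permutation p = 0.0111, adjusted 0.1) and rho = 0.374 (permutation p = 0.115, adjusted 0.331) over 19 ipsilateral libraries. Over 18 contralateral libraries r was 0.49 (permutation p = 0.0387, adjusted 0.116) and rho 0.548 (permutation p = 0.0208, adjusted 0.0935). Adjustment was over 9 relations, and none had an adjusted p under 0.05. Without the 2 libraries farthest from the median r was 0.3 and 0.248, so the relation rests in part on those libraries. Within prefix 9 r was 0.733 over 12 and 0.772 over 10 libraries, and within prefix 8 −0.0773 over 7 and −0.158 over 8 libraries, and the prefixes were not tested against each other. Without mouse 9_14 the ipsilateral r was 0.608.

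**Figure D5:**
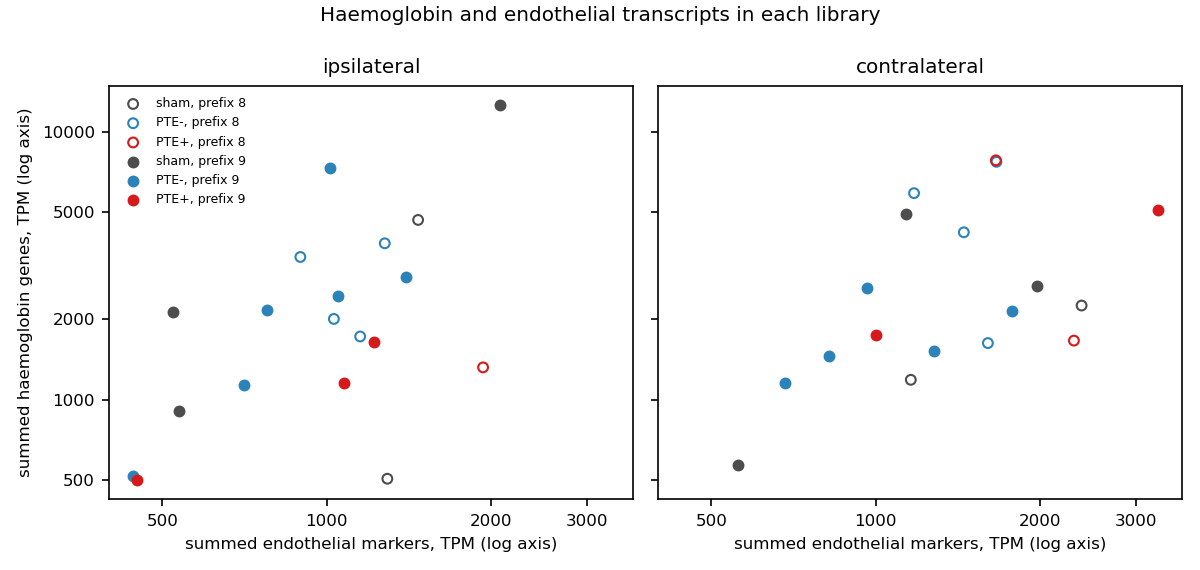
Summed haemoglobin TPM against the summed TPM of 12 endothelial markers on log axes, in panels for ipsilateral and contralateral libraries, with group by colour and open points for mouse prefix 8, filled for prefix 9. Each point is a library, and endothelial sums run from 442 TPM (ipsilateral PTE− mouse 9_15) to 3295 TPM (contralateral PTE+ mouse 9_17).

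Astrocyte markers had no relation to haemoglobin that passed its test in either hemisphere. Hba-a1 and the mean level of 12 astrocyte markers had r = −0.258 ipsilaterally (permutation p = 0.283; rho = −0.239, permutation p = 0.322) and r = −0.165 contralaterally (permutation p = 0.513; rho = −0.356, permutation p = 0.147). Without the 2 farthest libraries r was −0.494 ipsilaterally and −0.0623 contralaterally. Ipsilaterally r was 0.573 within prefix 8 and −0.559 within prefix 9. Microglia markers gave r = 0.136 ipsilaterally (permutation p = 0.58; rho = 0.212, permutation p = 0.381) and −0.102 contralaterally (permutation p = 0.687; rho = 0.0175, permutation p = 0.948), the first becoming 0.591 without the 2 farthest libraries and 0.472 without mouse 9_14 alone. Libraries with more haemoglobin had fewer genes above 0 TPM ipsilaterally (r = −0.494, permutation p = 0.0304, adjusted 0.116; rho = −0.567, permutation p = 0.0125, adjusted 0.0935). That relation was −0.407 without mouse 9_14, −0.595 without the 2 farthest libraries, −0.127 within prefix 8 and −0.617 within prefix 9. Contralaterally r was 0.0656 (permutation p = 0.796; rho = −0.102, permutation p = 0.685), and it turned to −0.348 without the 2 farthest libraries.

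Ranked by the lower of the ipsilateral (19 libraries) and contralateral (18 libraries) r with summed haemoglobin, 18 of 13128 genes with a mean above 1 TPM had both above 0.5. The 10 closest were Car4, Esam, Igfbp7, Nostrin, Tmem204, Ddc, Gimap6, Lmo2, Plk2 and Slc22a8. Car4, a carbonic anhydrase anchored to the cell surface, came first with r = 0.711 and 0.751 and ranged from 56.5 to 401 TPM ipsilaterally and 48.9 to 256 TPM contralaterally. Esam, an adhesion molecule of endothelium and one of the endothelial markers, had r = 0.789 and 0.635. Igfbp7, a secreted binding protein, had r = 0.682 and 0.596, and Slc22a8, an organic anion transporter of the blood-brain barrier, 0.593 and 0.528. The median r over all ranked genes was −0.194 ipsilaterally and 0.0348 contralaterally. Medians were 0.503 and 0.417 for the 12 endothelial markers, of which 10 were positive in both, −0.226 and −0.109 for the astrocyte markers, −0.357 and −0.362 for the oligodendrocyte markers, and −0.266 and 0.0443 for 13 erythroid genes. Without mouse 9_14 the ipsilateral median of the erythroid genes turned to 0.0181, and that of the 12 microglia markers (0.0983, contralaterally −0.0711) was 0.455. These r values describe libraries that share a bead separation and an amplification.

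The other genes of haem synthesis, taken as a sum, were present in all 37 libraries. The 18 of them besides Alas2 summed to 839 to 1426 TPM (median 1082), and Alas1, the enzyme that takes the place of Alas2 outside the erythroid line, measured 74.2 to 278 TPM (median 195). Of 15 or 16 tested in each comparison, Tmem14c, a mitochondrial carrier of haem precursors, rose in ipsilateral injured libraries (63 ± 47.6 against 15 ± 26.1 TPM, log2 difference 2.26, limma adjusted p = 1), as 1 call among 16 against 1.62% of all tested genes. It lost the call without sham mouse 8_15, 8_16, 9_9 or 9_11 (log2 differences of 1.97 to 3.04 with single mice left out). Slc25a28, a mitochondrial iron carrier, rose in contralateral PTE+ libraries (52.5 ± 6.24 against 37.9 ± 6.72 TPM, 0.47, limma adjusted p = 0.999), 1 call among 16 against 2.79%, and the calls were 0 in the other 5 comparisons.

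The 12 genes listed for uptake and breakdown of haem and haemoglobin and for handling of iron summed to 4655 to 12444 TPM (median 8541). The ferritin chains Fth1 (median 4595 TPM) and Ftl1 (median 3019.8 TPM) were the most abundant, so the sum says little of the genes that break haem down. Haptoglobin (Hp) reached at most 10.6 TPM with 0 in 1 library, and the haemoglobin scavenger receptor Cd163 1.95 TPM with 0 in 3. Haem oxygenase 1 (Hmox1), which breaks haem down to biliverdin, iron and carbon monoxide, measured 16.4 to 44.5 TPM. It rose after injury in ipsilateral libraries (31.9 ± 5.4 against 23.7 ± 4.44 TPM, log2 difference 0.41, SE 0.15, limma adjusted p = 1) and in contralateral libraries (26.4 ± 4 against 20.4 ± 3.24 TPM, 0.36, SE 0.12, limma adjusted p = 0.978), 1 call among 10 tested genes of the list in each, against 1.62% and 4.05% of all tested genes. The ipsilateral call ended without sham mouse 9_10 (0.30). Hmox1 was also higher ipsilaterally than contralaterally (29.6 ± 6.61 against 24.3 ± 4.35 TPM, 0.26, limma adjusted p = 0.998), 1 call among 10 against 2.24%, a call that ended without sham mouse 8_15, 8_16 or 9_11 and without PTE+ mouse 9_17 or 9_18 (0.24 to 0.30 with single mice left out). It also ended with TPM rescaled without haemoglobin and mitochondrial genes and with summed haemoglobin as a covariate (0.26 in both), where the fold was just under the threshold of 1.2. The main fit between hemispheres had no block for the mouse, and with the block the call of Hmox1 held. Of the 10 tested genes of this list, contralateral PTE+ libraries had the iron exporter Slc40a1 higher (27.3 ± 17.4 against 12.6 ± 3.18 TPM, 0.91, and 0.54 with the call held without PTE+ mouse 9_17, its highest library at 52.3 TPM) and the biliverdin reductase Blvrb lower (57.4 ± 3.94 against 69.4 ± 5.39 TPM, −0.27, with no call and −0.22 without PTE+ mouse 8_10, and no call with the prefix or summed haemoglobin as covariate), which are 2 calls among 10 against 2.79% of all tested genes, and other calls of this list were 0. Of 10 tested erythroid genes, the transferrin receptor Tfrc was lower ipsilaterally than contralaterally (14.9 ± 7.25 against 21.9 ± 11.5 TPM, −0.51, limma adjusted p = 0.998), 1 call among 10 against 2.24%, and calls were 0 in the other 6. The call of Tfrc, also from the fit without the mouse as a block, held with it.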

How the data were processed

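RNA of ACSA-2 captured astrocytes was measured in 37 libraries, 19 ipsilateral and 18 contralateral. The authors trimmed reads with Trim Galore 0.6.4, mapped them to mm10 with Bowtie2 2.4.1, estimated abundance with RSEM 1.2.28 and deposited TPM per Ensembl gene, 1 table per hemisphere. Their test of counts in DESeq2 1.36.0 could not be repeated on TPM, and the annotation release used by RSEM is not stated. All columns of both tables were used. GENCODE vM21 gave a symbol to 21856 genes and none to 119.

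Values were transformed to log2(TPM + 1). Genes whose mean exceeded 5 TPM in some group were compared with limma 3.58.1 (R 4.3.3) with a variance trend, called at an unadjusted p under 0.05 and a fold of at least 1.2 (thresholds taken from the methods of the study), and adjusted by Benjamini-Hochberg over all tested genes. Single genes were also tested, two-sided, over all regroupings of libraries, each from a separate mouse within a hemisphere, or of within-mouse differences. Between hemispheres of the same mice, 100000 permutation draws were used, and with the mouse as a block all sign changes. Summed haemoglobin was given no test. Relations used permutation with 100000 draws. Tables and plots were made in Python 3.11.15 (scipy 1.17.1, pandas 2.3.3, numpy 2.4.6, matplotlib 3.10.9). The fits were tested on simulated data.

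Hemispheres were paired by the mouse named in the labels. As a check, deviations from group means over 10235 genes had a median r of 0.412 between hemispheres of a mouse (0.0418 to 0.686, above 0.1 in 16 of 17) and −0.106 over 98 pairs of different mice.

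The 14 lists held astrocyte, endothelial, mural, microglia, neuron, oligodendrocyte, neutrophil and monocyte, platelet and lymphocyte markers, erythroid, embryonic and minor globin, other globin, haem synthesis, and haem and haemoglobin clearance genes. Trbc2, Ighm, Hbb-bh0 and Ahsp are in neither table. Named genes were the 5 genes, list genes that were called, the most abundant gene of most lists, and list genes that define red blood cells. Further list genes picked for their function, such as Bpgm, Fech, Alas1, Hp and Cd163, and the 10 most alike summed haemoglobin were also named. Members and lists were chosen with earlier results of these data known, and list genes named at or near 0 were picked after their values were seen. Alternatives were a pseudocount of 0.1, no filter, quantile normalization, TPM rescaled without haemoglobin and mitochondrial genes, array weights, the name prefix as covariate, the mouse as a block, and fits without single PTE+ or sham mice or without PTE− mouse 9_14. Summed haemoglobin as a covariate was chosen after seeing the data.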

Additional observations from a re-analysis of the deposited data

Results flagged for a closer look

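Within groups of 4 to 10 libraries, 6 values lay far from the rest of their group on the TPM scale. In the ipsilateral PTE− group the library of mouse 9_14, which held few detected genes, had the highest Hba-a1 (2988 TPM), Hbb-bs (2333 TPM) and Hbb-bt (281 TPM). Alas2 was far above its group at 12.1 TPM in contralateral PTE− mouse 8_13, at 8.03 TPM in contralateral sham mouse 9_11 and at 27.6 TPM in ipsilateral sham mouse 9_10. In all, 30 pairs of a gene and a group were examined. The rule set the gap to the next library against the range of the group. It marks about 1 in 20 groups by chance when values are normally distributed. All 6 marks were on the high side and log2 values were not examined, so the rate for these TPM is not known. The genes share libraries, so the 6 are not separate observations.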

How the results depend on the processing

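Of 415 alternative values of the 35 gene differences (5 genes in 7 comparisons), 384 kept their direction and side of the threshold, 2 were weaker, 6 stronger and 23 of the other sign, 6 of these for Alas2 between hemispheres, whose 0.00 has no direction to reverse. The cause was not tested. The threshold here was a permutation p under 0.05, or limma's unadjusted p for array weights and the prefix, so limma calls of Hba-a1 and Hbb-bt lost without PTE+ mouse 8_10, 9_18 or 9_19 are not among the weaker. After ipsilateral injury, single mice left out gave −0.79 to 0.42 for Hba-a1, −0.96 to 0.21 for Hba-a2, −0.86 to 0.20 for Hbb-bs, −0.87 to 0.33 for Hbb-bt and −0.90 to 0.17 for Alas2. Hba-a1 was also positive (0.07) without sham mouse 8_15, and Alas2 with array weights (0.05). After contralateral injury, single mice left out gave 0.17 to 0.90, 0.26 to 0.98, 0.15 to 1.02, 0.12 to 0.95 and 0.20 to 0.79 in the same order, and for the within-mouse difference of injury −1.38 to −0.22, −1.56 to −0.46, −1.39 to −0.38, −1.34 to −0.18 and −1.06 to −0.03. For contralateral PTE+ against PTE−, array weights gave −0.18, −0.35 and −0.29 for Hba-a1, Hbb-bs and Hbb-bt and −1.02 for Alas2, and single mice left out gave −0.08 to 0.69, −0.10 to 0.68 and −0.03 to 0.61, and for Alas2 −0.55 to 0.43 (0.03 without 9_18). Between hemispheres Alas2 was 0.03 with quantile normalization and −0.20 to 0.06 without single mice (0.01 without 9_9, 0.04 without 9_17, 0.02 without 9_18). For the within-mouse difference of outcomes, single mice left out gave −0.82 to −0.07 for Hba-a1, −0.74 to −0.18 for Hba-a2, −0.57 to 0.08 for Hbb-bs, −0.75 to −0.31 for Hbb-bt and −0.28 to 0.34 for Alas2. In prefix 8 the relation of Hba-a1 to endothelial markers was −0.0773 ipsilaterally and −0.158 contralaterally. Counts of called genes moved over 1.5-fold as follows. With no filter they were 379 and 682 for ipsilateral and contralateral injury, 171 and 458 for outcome, and 1175 and 631 for the within-mouse differences of injury and outcome. More genes are tested then, and the share called was 1.9% and 3.4%, 0.865% and 2.32%, and 5.71% and 3.11%. Array weights gave 843 for ipsilateral injury and 441 and 828 for outcome. Without mouse 9_14 the ipsilateral counts were 399 for injury and 197 for outcome, and with the mouse as a block the hemispheres gave 405. Summed haemoglobin as a covariate, chosen after seeing the data, gave 775 for contralateral injury and 205 for the within-mouse difference of outcomes. Single mice left out gave 138 to 415 and 231 to 883 for injury, 23 to 121 and 201 to 489 for outcome, and 440 to 1134 and 156 to 829 for the within-mouse differences. The depth of single libraries is not in the tables, so counting error was not estimated.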

Other observations

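Other globin genes, which bind oxygen outside red blood cells, were low. The 4 on the list summed to 0 to 34.3 TPM (median 13.7), with neuroglobin (Ngb) most abundant and 0 TPM in the library of PTE− mouse 9_14.

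Among other cell type markers, those of oligodendrocytes were lower in 7 of 7 tested genes after ipsilateral injury (median log2 difference −1.23), and Mog (−1.75), Mag (−1.53) and Opalin (−1.23) were called in limma against 1.62% of all tested genes. Without sham mouse 8_16 the 3 calls ended (−1.15, −1.07 and −0.57), and those of Mag and Opalin also ended without sham mouse 9_9 (−1.45 and −1.10) and with a pseudocount of 0.1 (−1.81 and −1.57). Opalin also lost its call without sham mouse 8_15 (−1.22) or PTE+ mouse 9_17 (−1.16) or 9_18 (−1.20). It passed the filter on TPM through its sham mean alone (14.9 ± 20.9 TPM, against 3.29 ± 2.63 TPM after injury). The astrocyte filament gene Gfap rose in the same comparison (1.18) and held its call in 17 of 17 alternatives. Aqp4 rose there too (0.39), with its call lost in 3 of 17. The microglia marker Trem2 rose after contralateral injury (0.73, lost in 8 of 16), against 4.05% of all tested genes. Trem2 passed the filter on TPM through its injured mean alone (7.11 ± 2.38 TPM, against 4.87 ± 3.78 TPM in sham mice). For the within-mouse difference of injury, Gfap (1.42), Aqp4 (0.43) and the neuron marker Gad1 (0.54) were called, against 6.76%. These calls were lost in 1, 2 and 1 of 15. For that of outcomes, the oligodendrocyte marker Cnp (0.37) was called, against 3.11%, and lost its call in 2 of 10.

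With summed haemoglobin as a covariate, chosen after seeing the data, 160 of the 169 genes called after ipsilateral injury were among 209, and 393 of the 428 called after contralateral injury were among 775. For ipsilateral outcome, 12 of the 60 called genes were among 49, and for contralateral outcome 216 of 291 were among 283. Between hemispheres 194 of 233 were among 222, and for the within-mouse differences 431 of 723 were among 519 for injury and 169 of 332 among 205 for outcome.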
